A study of Mus musculus with 15 samples.

Results

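The colony-stimulating factors are secreted proteins that drive the survival, growth and maturation of myeloid cells, and here their genes were followed together with the genes of their receptors in mouse dendritic cells (DCs). The members are the ligand genes Csf1, Csf2, Csf3 and Il3 and the receptor genes Csf1r, Csf2rb and Csf3r, which make 7 of the 19937 genes measured. A member was read from the probe set that carries exactly its symbol, and each of the 7 genes has 1 such probe set on the array, so no choice between probe sets was needed.

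Csf1 encodes M-CSF, which acts through the receptor tyrosine kinase encoded by Csf1r and maintains macrophages and monocytes. Csf2 encodes GM-CSF and Il3 encodes interleukin-3, and both signal through the common beta chain, the product of Csf2rb, paired with an alpha chain of their own. Csf3 encodes G-CSF, the main growth factor of neutrophils, which acts through the product of Csf3r. GM-CSF is the factor most used to grow DCs in culture, and its receptor signals through JAK2 and STAT5.

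Gene expression was measured with Affymetrix Mouse Gene 1.0 ST arrays in D1 cells, a long-term line of DCs from the spleen of C57BL/6 mice. The 5 groups hold 3 arrays each, labelled as biological replicates. They are cells given curdlan with FK506 for 2 h, curdlan with FK506 for 4 h, curdlan for 2 h, curdlan for 4 h, and nontreated cells. Curdlan, given at 10 µg/ml, is a bacterial beta-glucan that binds dectin-1, and FK506 blocks calcineurin, the phosphatase through which NFAT factors are moved into the nucleus. Every group, nontreated cells included, shares the line and its culture medium. Per the study's methods, that medium is supplemented with supernatant of fibroblasts transfected to express GM-CSF, the product of Csf2. The methods do not state separately whether the supernatant was present during the incubations with curdlan and FK506. The line stands for DCs of 1 origin, no group with FK506 alone is analysed here, and the same 3 nontreated arrays serve both times.

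Values are log2 intensities made by RMA, and a difference of 1 is a 2-fold change. A gene passed the test at an adjusted p under 0.05 with a fold change of at least 1.5 in a limma fit to all 15 arrays, with Benjamini-Hochberg adjustment over the 19937 genes. All adjusted p values below come from that fit, and differences are given with their SE. Array weights were lowest for nontreated replicate 1 (0.0781) and for replicate 3 of curdlan for 2 h (0.119), called the outlying arrays here. The DC label was checked against 10 DC markers, with 0 of 10 under the lower quartile of gene means (5.28), and their summed log2 level spanned 104.8 to 105.1 with curdlan and FK506 for 4 h, 105.2 to 105.4 with curdlan for 4 h and 101.1 to 101.4 in nontreated cells. Of other cell types' markers, 1 of 6 macrophage markers lay under that quartile in each group, 2 of 6 T cell, 2 of 5 B cell, 4 of 11 fibroblast and 0 of 2 erythroid markers, 5 of 7 NK cell markers, 5 or 6 of 9 neutrophil markers and 5 or 6 of 8 mast cell and basophil markers. The other lists, macrophage markers above all, were thus not uniformly low. Of all these other lists only Blnk (B cell) and Klrk1 (NK cell) passed the test in curdlan-treated over nontreated cells, both higher at 4 h. Of the 10 DC markers, 2 were higher and 1 lower with curdlan for 2 h. With curdlan for 4 h 2 of them, Irf8 and Irf4, were higher and 0 lower, and the median difference of the 10 was 0.16. Over all genes tested, 2.2% were higher and 1.4% lower at 2 h, and 5.05% were higher and 4.15% lower at 4 h. The median of all genes at 4 h was -0.12. The summed level of the 11 fibroblast markers spanned 61.68 to 62.11 with curdlan for 4 h and 62.36 to 66.19 in nontreated cells. With curdlan for 2 h it spanned 61.56 to 65.27, and 0 of the 11 passed the test at 4 h. The wide spans fall in the 2 groups that hold the outlying arrays. Sums of the T cell, neutrophil, and mast cell and basophil lists were also widest in these groups, so the fibroblast spans are not read as a change with curdlan. The housekeeping gene Actb averaged 13.48 in cells given curdlan for 4 h and 13.47 in nontreated cells. Since bulk RNA was measured, fewer cells of a type and less RNA per cell cannot be told apart.

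Because Csf1 and Csf2 passed the test after curdlan whereas Il3, the next tested gene to Csf2 on chromosome 11, did not, the 250 bases before the transcription start of these 3 genes are shown first. They come from RefSeq with build GRCm38.p6 and read 5′ to 3′ toward the start on the minus strand (Csf1 chr3:107760470-107760719, Csf2 chr11:54249900-54250149, Il3 chr11:54267280-54267529). Capitals mark a match to the NF-kB consensus.
Csf1: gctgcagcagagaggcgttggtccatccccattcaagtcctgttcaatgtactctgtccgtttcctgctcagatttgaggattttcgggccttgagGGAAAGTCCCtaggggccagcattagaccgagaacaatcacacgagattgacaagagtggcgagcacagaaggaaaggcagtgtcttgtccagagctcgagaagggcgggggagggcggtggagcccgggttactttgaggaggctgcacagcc
Csf2: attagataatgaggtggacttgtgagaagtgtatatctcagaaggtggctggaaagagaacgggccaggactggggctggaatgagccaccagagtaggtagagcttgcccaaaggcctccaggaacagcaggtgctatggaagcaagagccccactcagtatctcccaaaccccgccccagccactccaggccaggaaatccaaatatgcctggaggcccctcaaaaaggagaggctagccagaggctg
Il3: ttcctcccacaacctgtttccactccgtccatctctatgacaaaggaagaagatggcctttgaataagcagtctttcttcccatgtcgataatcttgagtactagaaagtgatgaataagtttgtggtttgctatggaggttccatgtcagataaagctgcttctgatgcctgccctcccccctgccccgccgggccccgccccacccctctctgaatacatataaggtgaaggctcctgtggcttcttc
The table gave promoters for 4 of the 7 members (Csf1, Csf2, Il3 and Csf3r), and each was searched on both strands over 300 bases, 250 before and 50 after the start. The letters GGAAAA, the core bound by NFAT factors, had no match in any of the 4 windows. Neither did the AP-1 site TGANTCA nor the TATA box, searched as TATAAA. The NF-kB consensus had 1 match in Csf1, with its first base at -154 from the start, and 1 in Csf3r at -129, both on the strand opposite to the gene. Of the 32851 promoters of the table, 23.4% held the NFAT core, 8.46% the NF-kB consensus, 7.81% the AP-1 site and 13.6% the TATA box. A missing match says only that these letters are not in this window, and a gene can have other starts and distant elements.

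Csf1, the M-CSF gene, had the largest fold of the 7 members after curdlan. It read 10.68, 10.78 and 10.54 in cells given curdlan for 2 h and 11.57, 11.65 and 11.53 in cells given curdlan for 4 h, against 7.15, 7.16 and 7.22 in nontreated cells. Every curdlan array lay more than 3 log2 units above every nontreated array, and the groups did not overlap. Csf1 thus rose by 3.49 ± 0.07 (11.2-fold, adjusted p = 7.12e-13) at 2 h and by 4.41 ± 0.07 (21.2-fold, adjusted p = 4.13e-14) at 4 h. It was still rising between the times, with 11.58 ± 0.06 at 4 h and 10.66 ± 0.12 at 2 h (mean ± SD, n = 3 each), a difference of 0.92 ± 0.07 (adjusted p = 5.88e-07), or 0.86 without the 2 outlying arrays.

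Csf2, which encodes GM-CSF, rose as well. It read 8.13, 8.40 and 7.71 in cells given curdlan for 2 h and 9.35, 9.32 and 9.33 in cells given curdlan for 4 h, against 6.20, 5.83 and 6.02 in nontreated cells. The groups did not overlap, and the lowest of the 2 h arrays was replicate 3, 1 of the outlying arrays. The rise was 2.06 ± 0.14 (4.18-fold, adjusted p = 9.49e-08) at 2 h and 3.31 ± 0.14 (9.95-fold, adjusted p = 2.99e-10) at 4 h. Without the 2 outlying arrays, the rise of Csf2 was 2.34 at 2 h and 3.41 at 4 h, and that of Csf1 was 3.54 and 4.39. The level of Csf2 at 4 h was above that at 2 h by 1.25 ± 0.14 (adjusted p = 1.14e-05), or 1.07 without those arrays.

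**Figure D1:**
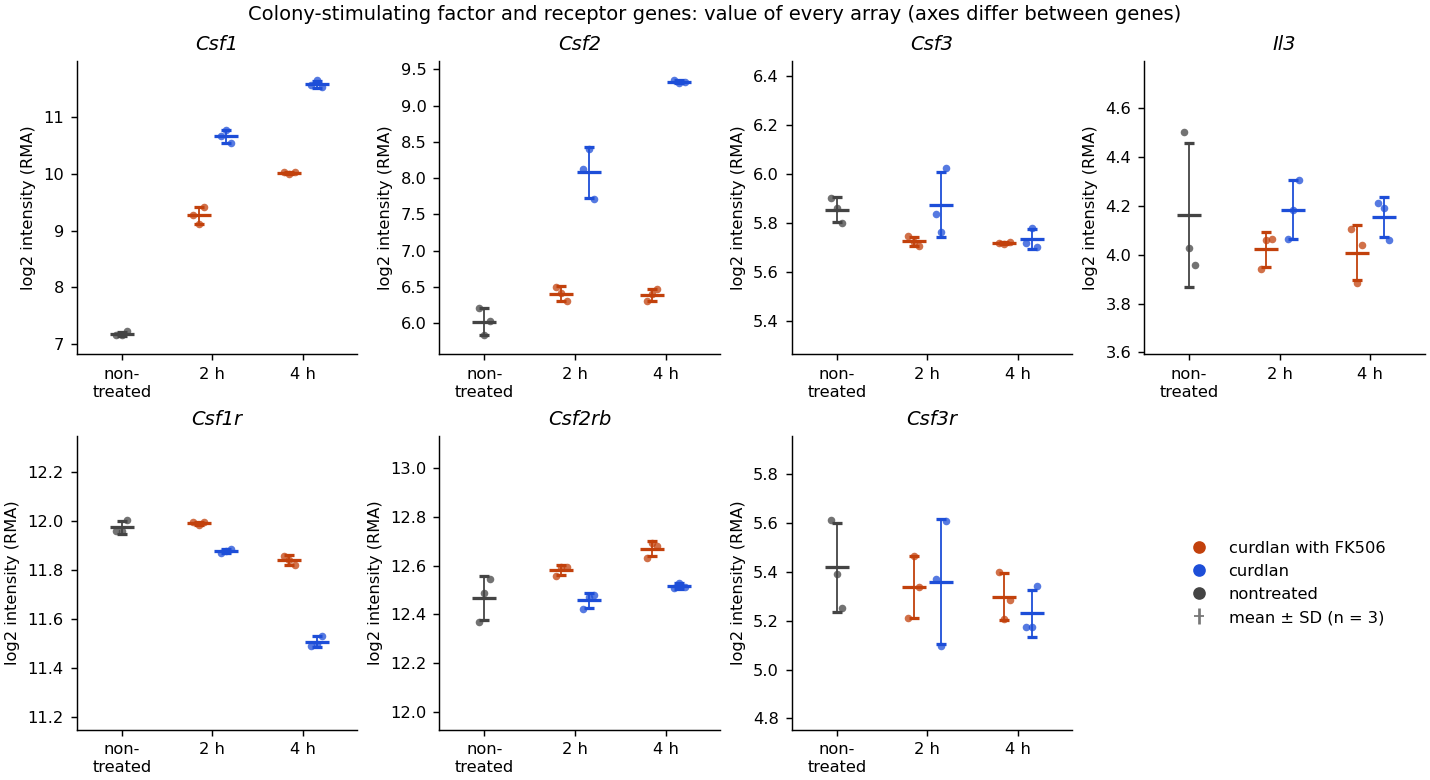
Log2 RMA intensity of each array (points) with the group mean and SD (bars, n = 3) for the 7 genes, in nontreated cells and in cells given curdlan with FK506 or curdlan for 2 h and 4 h; axes differ between genes. Csf1 and Csf2 rise with curdlan and lie lower where FK506 was given, Csf1r is lowest in cells given curdlan for 4 h, and no group of Csf3, Il3 or Csf3r passed the test against another.

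The other ligand genes did not pass the test after curdlan. Csf3, the G-CSF gene, read 5.84, 5.76 and 6.02 in cells given curdlan for 2 h and 5.72, 5.78 and 5.70 in cells given curdlan for 4 h, against 5.90, 5.86 and 5.80 in nontreated cells. Its difference was 0.02 at 2 h (95% interval -0.10 to 0.14, adjusted p = 0.895) and -0.12 at 4 h (-0.25 to 0.00, adjusted p = 0.112), where the groups did not overlap. Over the 15 arrays Csf3 averaged 5.78, at percentile 33.9 of the gene means. Il3 read 4.06, 4.18 and 4.31 with curdlan for 2 h and 4.21, 4.19 and 4.06 with curdlan for 4 h, against 4.50, 4.03 and 3.96 in nontreated cells. The curdlan values of Il3 lay inside the range of the nontreated ones, of which replicate 1, 1 of the outlying arrays, was the highest. The difference of Il3 was 0.02 at 2 h (-0.23 to 0.28, adjusted p = 0.946) and -0.01 at 4 h (-0.26 to 0.25, adjusted p = 0.956). All 5 group means of Il3 lay under the lower quartile of gene means, and no call of presence or absence was made from these values.

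Of the 7 members, 2 were higher and 0 lower in cells given curdlan for 2 h than in nontreated cells, and the same 2 genes were higher at 4 h with 0 lower. Over all genes tested, 2.2% were higher and 1.4% lower at 2 h, and 5.05% were higher and 4.15% lower at 4 h. Both genes were also the members higher at 4 h than at 2 h with curdlan, and 0 members were lower, where 2.79% of all genes were higher and 1.3% lower.

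The receptor gene Csf1r, by contrast, was lower after 4 h, by an amount that did not reach 1.5-fold. It read 11.87, 11.88 and 11.89 in cells given curdlan for 2 h and 11.49, 11.50 and 11.53 in cells given curdlan for 4 h, against 11.96, 11.96 and 12.01 in nontreated cells. The groups did not overlap at either time, and replicates differed by under 0.1 log2 units. The difference was -0.10 ± 0.03 at 2 h (adjusted p = 0.0635) and -0.47 ± 0.03 at 4 h (1.38-fold, adjusted p = 9.33e-08). The median of all genes at 4 h was -0.12, and relative to it the difference of Csf1r was -0.35. Without the 2 outlying arrays, the difference of Csf1r was -0.11 (adjusted p = 0.0413) at 2 h and -0.48 at 4 h.

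Csf2rb, the common beta chain gene, showed no difference beyond its spread after curdlan. It read 12.42, 12.47 and 12.48 in cells given curdlan for 2 h and 12.51, 12.53 and 12.51 in cells given curdlan for 4 h, against 12.37, 12.49 and 12.55 in nontreated cells. The differences were -0.01 (95% interval -0.11 to 0.09, adjusted p = 0.93) at 2 h and 0.05 (-0.05 to 0.15, adjusted p = 0.396) at 4 h. Csf2rb has a near-identical neighbour in the mouse genome, Csf2rb2, which encodes a beta chain that serves IL-3 only, and RNA of the 2 genes could be read in part by the same probes.

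Csf3r, the G-CSF receptor gene, read 5.37, 5.10 and 5.61 in cells given curdlan for 2 h and 5.18, 5.18 and 5.34 in cells given curdlan for 4 h, against 5.61, 5.39 and 5.25 in nontreated cells. All groups overlapped. The difference was -0.06 (95% interval -0.32 to 0.20, adjusted p = 0.838) at 2 h and -0.19 (-0.45 to 0.07, adjusted p = 0.223) at 4 h. Csf3r was dim on these arrays, with a mean of 5.33 over the 15 arrays. Its mean with curdlan for 4 h, 5.23, lay under the lower quartile of gene means (5.28).

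Next, cells given curdlan with FK506 were compared with cells given curdlan, which addresses the effect of the calcineurin inhibitor on the response to curdlan. These comparisons use the same curdlan arrays as those above. Csf1 and Csf2 fell at both times, and no other member passed the test. Beside them, the summed log2 level of 6 macrophage markers spanned 49.45 to 49.55 with FK506 for 4 h, against 51.26 to 51.55 with curdlan for 4 h, where Mertk alone of the list passed. Of 5 B cell markers 1, Blnk, was lower with FK506 at 4 h (-0.81 ± 0.08, adjusted p = 1.28e-05), where 1.53% of all genes were lower. The part of either list in the results was not tested. Csf1 read 9.27, 9.11 and 9.42 in cells given curdlan with FK506 for 2 h, against 10.68, 10.78 and 10.54 with curdlan for 2 h. At 4 h it read 10.03, 10.00 and 10.02 with FK506, against 11.57, 11.65 and 11.53 without. Each FK506 array lay below each curdlan array of its time, and Csf1 fell at 2 h (-1.40 ± 0.07, 2.63-fold, adjusted p = 3.89e-08) and at 4 h (-1.56 ± 0.07, 2.96-fold, adjusted p = 1.11e-08). Without the 2 outlying arrays the differences of Csf1 were -1.46 and -1.56.

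Csf2, the GM-CSF gene, fell as well. It read 6.50, 6.41 and 6.31 in cells given curdlan with FK506 for 2 h, against 8.13, 8.40 and 7.71 with curdlan for 2 h. At 4 h it read 6.31, 6.40 and 6.47 with FK506, against 9.35, 9.32 and 9.33 without. The groups did not overlap at either time, and Csf2 fell at 2 h (-1.67 ± 0.14, 3.19-fold, adjusted p = 2.84e-06) and at 4 h (-2.94 ± 0.14, 7.68-fold, adjusted p = 1.07e-08). Without the 2 outlying arrays, the differences of Csf2 were -1.86 at 2 h and -2.94 at 4 h.

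Of the 7 members, 2 were lower and 0 higher with FK506 at each time. Over all genes tested, 0.762% were lower and 0.361% higher at 2 h, and 1.53% were lower and 0.211% higher at 4 h.

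**Figure D2:**
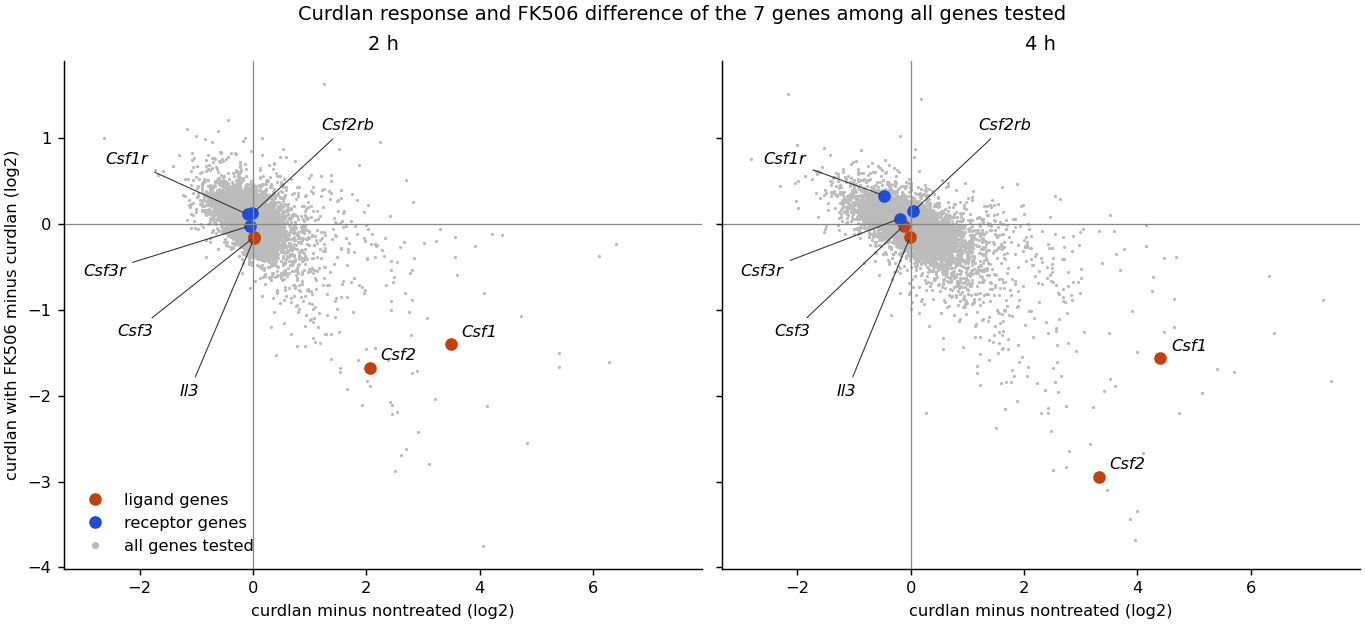
Each gene tested (grey) by its log2 difference between curdlan-treated and nontreated cells (horizontal) and between cells given curdlan with FK506 and curdlan (vertical), at 2 h and 4 h, with the ligand genes in orange and the receptor genes in blue. Csf1 and Csf2 lie at the lower right, higher with curdlan and lower with FK506, and the other 5 genes lie within 0.5 log2 units of 0 on both axes; both axes use the same curdlan arrays, so the slope of the cloud is partly built in.

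Levels under FK506 were then set against nontreated cells. Csf1 in cells given curdlan with FK506 was above nontreated cells by 2.09 ± 0.07 (4.25-fold, adjusted p = 1.84e-10) at 2 h and by 2.84 ± 0.07 (7.17-fold, adjusted p = 5.21e-12) at 4 h. Csf2 averaged 6.41 ± 0.10 at 2 h and 6.39 ± 0.08 at 4 h in cells given curdlan with FK506, against 6.02 ± 0.19 in nontreated cells (SD, n = 3 each). Every FK506 array of Csf2 lay above every nontreated array, but the differences of 0.39 (95% interval 0.09 to 0.69, adjusted p = 0.0701) and 0.37 (0.08 to 0.67, adjusted p = 0.0645) did not pass the test. Without nontreated replicate 1 the differences were 0.48 (adjusted p = 0.0376) and 0.46 (adjusted p = 0.0317), still under 1.5-fold. Over the alternatives tried, the adjusted p of this residual difference of Csf2 spanned 2.29e-05 to 0.215 at 2 h and 6.81e-06 to 0.192 at 4 h, and its value stayed between 0.28 and 0.56.

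Hence 1 of the 7 members, Csf1, was higher and 0 lower in cells given curdlan with FK506 than in nontreated cells at each time. Over all genes, 1.81% were higher and 0.537% lower at 2 h, and 2.95% were higher and 2.43% lower at 4 h.

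**Figure D3:**
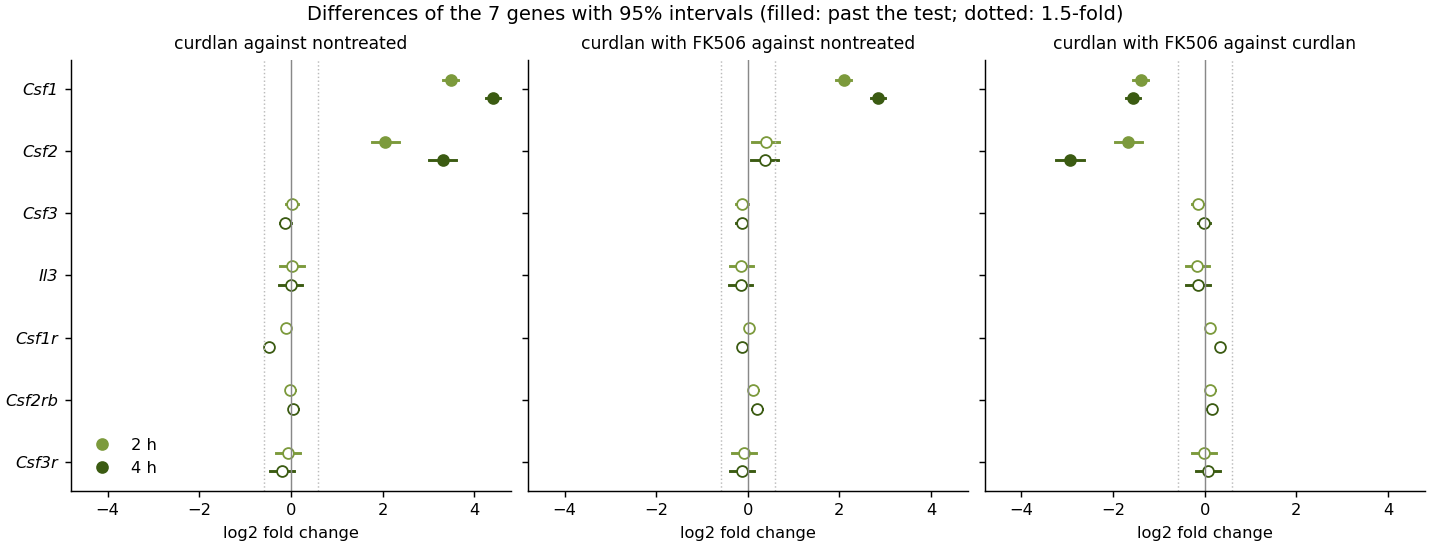
Log2 fold change (horizontal) of the 7 genes with its 95% interval at 2 h (light) and 4 h (dark), for curdlan over nontreated cells, curdlan with FK506 over nontreated cells, and curdlan with FK506 over curdlan; filled points passed the test and dotted lines mark 1.5-fold. Csf1 stays 2.09 and 2.84 above nontreated cells under FK506, whereas the intervals of Csf2 there lie between 0.08 and 0.69.

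The course from 2 h to 4 h was tested within each treatment. With FK506, Csf1 was higher at 4 h than at 2 h by 0.75 ± 0.07 (1.69-fold, adjusted p = 9.15e-06), whereas Csf2 differed by -0.02 (95% interval -0.31 to 0.28, adjusted p = 0.988). Of the 7 members 1 was therefore higher and 0 lower at 4 h than at 2 h under FK506, where 0.903% of all genes were higher and 0.782% lower. The FK506 difference of Csf2 was more negative at 4 h than at 2 h, tested as an interaction (-1.27 ± 0.19, adjusted p = 0.00171). For Csf1 the interaction was -0.17 ± 0.10 (95% interval -0.39 to 0.06, adjusted p = 0.406), which does not show equal effects. Of the members 1 was lower and 0 higher in this interaction, where 1.06% of all genes were lower and 0.171% higher.

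In the order of group means, Csf1 was highest with curdlan for 4 h, followed by curdlan for 2 h, curdlan with FK506 for 4 h, curdlan with FK506 for 2 h and nontreated cells, and each neighbouring pair passed the test. For Csf2 the order was curdlan for 4 h, curdlan for 2 h, curdlan with FK506 for 2 h, curdlan with FK506 for 4 h and nontreated cells. Here the first 2 steps passed, but curdlan with FK506 for 2 h, curdlan with FK506 for 4 h and nontreated cells did not differ by the test.

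Csf1r was higher with FK506 than without, by less than 1.5-fold. It read 11.997, 11.985 and 11.995 in cells given curdlan with FK506 for 2 h, against 11.87, 11.88 and 11.89 with curdlan for 2 h. At 4 h it read 11.86, 11.84 and 11.82 with FK506, against 11.49, 11.50 and 11.53 without. The groups did not overlap, and the differences were 0.11 ± 0.03 (adjusted p = 0.0628) at 2 h and 0.33 ± 0.03 (1.26-fold, adjusted p = 1.63e-05) at 4 h, with an interaction of 0.22 ± 0.05 (adjusted p = 0.0197). With FK506 at 4 h Csf1r was below nontreated cells, with a difference of -0.14 ± 0.03 (adjusted p = 0.00872). The median of all genes there was -0.08, and relative to it the difference of Csf1r was -0.05. None of these reached 1.5-fold, so no neighbours in the order of its group means differed by the test.

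Csf2rb read 12.56, 12.59 and 12.59 in cells given curdlan with FK506 for 2 h and 12.63, 12.69 and 12.68 at 4 h, against the curdlan values above, and all FK506 arrays were the highest of the 15. Its differences were 0.12 ± 0.05 (adjusted p = 0.142) at 2 h and 0.15 ± 0.05 (1.11-fold, adjusted p = 0.0489) at 4 h over curdlan, and 0.20 ± 0.05 (adjusted p = 0.00454) at 4 h over nontreated cells. All were under 1.5-fold, and the adjusted p over curdlan at 4 h spanned 0.00121 to 0.209 over the alternatives.

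Csf3, Il3 and Csf3r did not pass the test with FK506 either. Csf3 read 5.75, 5.72 and 5.71 with FK506 for 2 h and 5.72, 5.71 and 5.72 for 4 h, without overlap with curdlan at 2 h, and differed from curdlan by -0.15 (95% interval -0.27 to -0.02, adjusted p = 0.165) and -0.02 (-0.14 to 0.11, adjusted p = 0.937). Il3 read 3.94, 4.06 and 4.06 with FK506 for 2 h and 4.10, 3.88 and 4.04 for 4 h, and differed by -0.16 (-0.42 to 0.09, adjusted p = 0.457) and -0.15 (-0.40 to 0.11, adjusted p = 0.615). Csf3r read 5.21, 5.46 and 5.34 with FK506 for 2 h and 5.40, 5.21 and 5.29 for 4 h, and differed by -0.02 (-0.28 to 0.24, adjusted p = 0.931) and 0.07 (-0.19 to 0.33, adjusted p = 0.862). For these 3 genes no neighbours in the order of the 5 group means differed by the test.

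The chains and ligands that complete these receptors did not pass the test after curdlan or with FK506. Csf2ra, the alpha chain of the GM-CSF receptor, read 10.82, 10.96 and 10.90 in cells given curdlan for 2 h and 11.10, 11.06 and 11.01 in cells given curdlan for 4 h, against 10.75, 10.74 and 10.73 in nontreated cells. Its difference at 4 h was 0.32 ± 0.05 (1.25-fold, adjusted p = 8e-05), without overlap and under 1.5-fold, and with FK506 at 4 h it differed from curdlan by -0.06 (adjusted p = 0.553). Csf2rb2 differed from nontreated cells by 0.14 ± 0.05 at 4 h (adjusted p = 0.04) and Il5ra, the IL-5 receptor alpha chain, by 0.17 ± 0.07 (adjusted p = 0.0743). Il3ra, the IL-3 receptor alpha chain, differed by -0.21 ± 0.13 (adjusted p = 0.202), Il5 by -0.01 ± 0.11 (adjusted p = 0.943) and Il34, which encodes the other ligand of the Csf1r product, by -0.34 ± 0.16 (adjusted p = 0.103). In all, 0 of these 6 partner genes passed the test in curdlan over nontreated cells or in curdlan with FK506 over curdlan. Over all genes, 2.2% were higher and 1.4% lower with curdlan for 2 h, and 5.05% and 4.15% for 4 h. With FK506 0.361% of all genes were higher and 0.762% lower at 2 h, and 0.211% and 1.53% at 4 h. For 6 genes, 0 calls are thus near the share over all genes. Their median difference at 4 h was 0.06 in curdlan over nontreated cells, where that of all genes was -0.12, and 3 of 6 had an unadjusted p under 0.05 there.

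Among the 22 measured genes of JAK-STAT and proximal signalling, which carry the signal inside the cell, 1 was higher and 0 lower with curdlan for 2 h, and 5 were higher and 3 lower with curdlan for 4 h. Over all genes, 2.2% were higher and 1.4% lower at 2 h, and 5.05% were higher and 4.15% lower at 4 h. The median difference at 4 h was 0.12, against -0.12 for all genes. Stat5a, a transcription factor of GM-CSF and IL-3 signalling, averaged 11.98 ± 0.02 in cells given curdlan for 4 h and 9.28 ± 0.07 in nontreated cells (SD, n = 3 each), a rise of 2.70 ± 0.05 (6.49-fold, adjusted p = 8.41e-14), after 1.56 ± 0.05 at 2 h. Stat5b rose by 1.47 ± 0.05 (2.77-fold, adjusted p = 9.17e-11) at 4 h, and Pik3r1, the regulatory subunit of PI3 kinase, by 1.09 ± 0.08 (adjusted p = 1.2e-07). Inpp5d, which encodes the phosphatase SHIP that limits PI3 kinase signalling, fell by 0.88 ± 0.04 (adjusted p = 2.08e-10). With FK506, 0 of the 22 passed at either time (11 and 15 at an unadjusted p under 0.05). Here 0.361% of all genes were higher and 0.762% lower at 2 h, and 0.211% and 1.53% at 4 h. Thus 0 of 22 is near that share. The largest differences among the 22 genes at 4 h were 0.52 for Inpp5d and -0.49 for Shc1, an adaptor.

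Of 18 genes known as STAT5 targets or feedback inhibitors, 5 were higher and 1 lower with curdlan for 2 h, and 4 were higher and 4 lower with curdlan for 4 h. Medians were 0.05 and 0.135, against -0.04 and -0.12 for all genes. The shares over all genes were 2.2% higher and 1.4% lower at 2 h, and 5.05% and 4.15% at 4 h. Socs3, which encodes an inhibitor of cytokine receptors, rose by 2.33 ± 0.07 (5.02-fold, adjusted p = 1.34e-11) at 2 h and 2.00 ± 0.07 at 4 h, and Bcl2l1, which encodes the survival protein BCL-XL, by 1.39 ± 0.05 and 1.61 ± 0.05. Id1, an inhibitor of helix-loop-helix factors, fell by 1.29 ± 0.05 (adjusted p = 6.19e-11) and Spred2, an inhibitor of RAS signalling, fell by 0.78 ± 0.08 (adjusted p = 2.06e-06), both at 4 h. With FK506, Bcl6, which encodes a repressor, was the 1 gene that passed at 2 h, and at 4 h 0 of 18 passed. Bcl6 averaged 8.40 ± 0.05 in curdlan with FK506 and 7.66 ± 0.10 in curdlan at 2 h (higher by 0.75 ± 0.08, adjusted p = 3.58e-05). It was also the 1 gene lower with curdlan for 2 h than in nontreated cells (-0.83 ± 0.08, adjusted p = 3.96e-06). The FK506 shares over all genes were 0.361% higher and 0.762% lower at 2 h, and 0.211% and 1.53% at 4 h.

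Several other growth factor genes of blood cells were higher with curdlan and lower with FK506. Of 13 measured genes, 2 were higher with curdlan for 2 h and 4 for 4 h, with 0 lower. With FK506 1 was lower at 2 h and 4 at 4 h, with 0 higher. Over all genes, 2.2% were higher and 1.4% lower with curdlan for 2 h, and 5.05% and 4.15% for 4 h. With FK506 0.762% of all genes were lower and 0.361% higher at 2 h, and 1.53% and 0.211% at 4 h. The medians at 4 h were -0.06 in curdlan over nontreated cells (all genes -0.12) and 0.02 in curdlan with FK506 over curdlan (all genes 0.03). Lif, which encodes leukaemia inhibitory factor, read 7.90, 7.91 and 7.85 in curdlan with FK506 for 4 h and 9.12, 9.25 and 9.08 in curdlan for 4 h, a difference of -1.26 ± 0.08 (2.4-fold, adjusted p = 1.65e-07). Clcf1, which encodes a cytokine of the IL-6 family, fell too (-0.91 ± 0.07, adjusted p = 1.51e-06), as did Tslp, which encodes a cytokine that acts on DCs (-0.96 ± 0.11, adjusted p = 5.52e-05), and Il6 (-0.87 ± 0.08, adjusted p = 1e-05). Over nontreated cells, curdlan for 4 h raised Clcf1 by 2.72 ± 0.07, Lif by 2.43 ± 0.08, Il6 by 0.94 ± 0.08 and Tslp by 0.92 ± 0.11.

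Among 11 measured receptors for other growth factors, 0 passed with curdlan for 2 h and 2 were lower with curdlan for 4 h. Over all genes, 2.2% were higher and 1.4% lower at 2 h, and 5.05% were higher and 4.15% lower at 4 h. Lifr, the LIF receptor, read 8.96, 9.05 and 8.999 with curdlan for 4 h, against 9.89, 10.08 and 10.07 in nontreated cells, and fell by 1.01 ± 0.06 (2.01-fold, adjusted p = 1.06e-08). Il6ra, the IL-6 receptor alpha chain, fell by 0.69 ± 0.04 (adjusted p = 1.58e-08) with curdlan for 4 h. In curdlan with FK506 for 4 h Il6ra averaged 9.81 ± 0.02, against 9.10 ± 0.07 in curdlan for 4 h (SD, n = 3 each), higher by 0.72 ± 0.04 (1.64-fold, adjusted p = 8.35e-08). It was the 1 gene of the 11 that passed with FK506 at 4 h, and 0 passed at 2 h. The FK506 shares over all genes were 0.211% higher and 1.53% lower at 4 h, and 0.361% and 0.762% at 2 h. The medians at 4 h were -0.15 in curdlan over nontreated cells and 0.07 in curdlan with FK506 over curdlan.

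**Figure D4:**
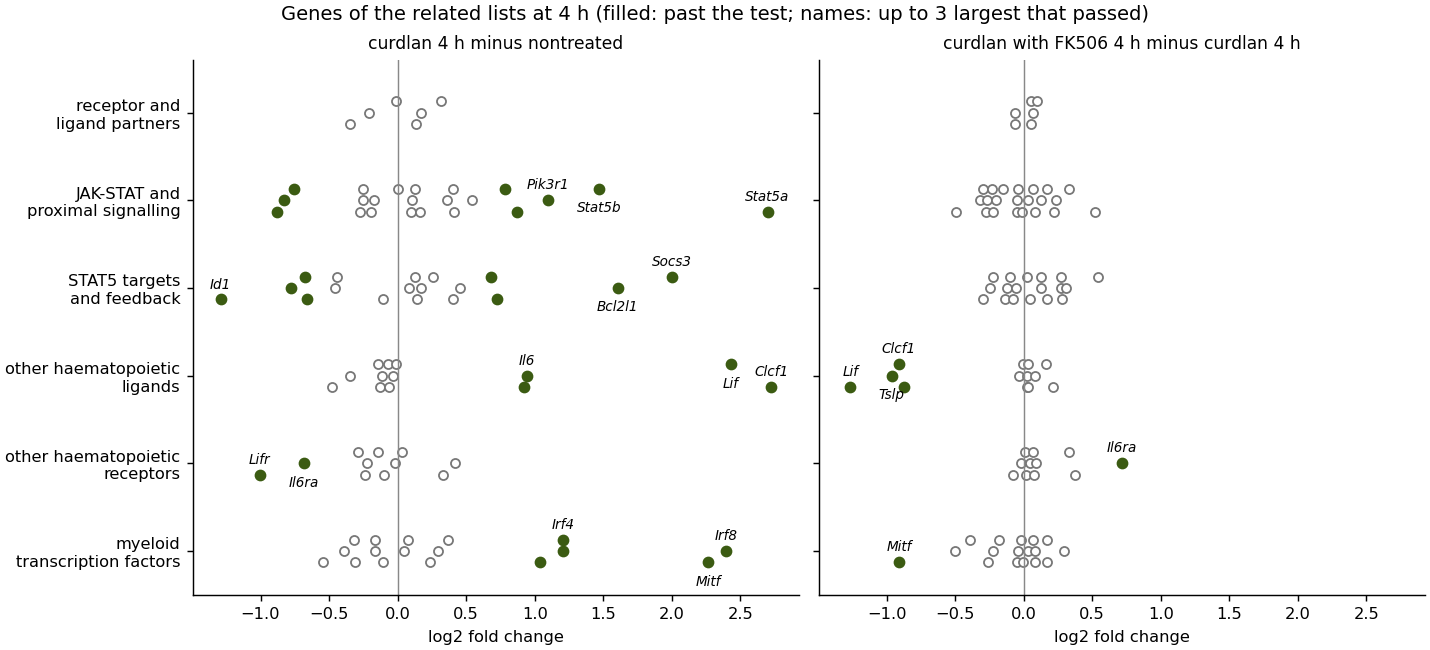
Log2 fold change (horizontal) of each measured gene (point) in 6 lists of genes related to colony-stimulating factor signalling, for curdlan 4 h over nontreated cells and for curdlan with FK506 4 h over curdlan 4 h; filled points passed the test. Stat5a rises by 2.70 with curdlan, and Lif, Tslp, Clcf1, Il6 and Mitf lie lower with FK506. Of the receptor and ligand partners 0 of 6 pass in either comparison, which is near the share over all genes.

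Finally, the genes whose values over the 15 arrays were most like those of Csf1 and Csf2 were taken by Pearson correlation among 2428 genes whose group means span at least 1.5-fold. The arrays fall into 5 groups, so r mainly reads likeness of group means. For Csf1 these were Cxcl10 (r = 0.994), a chemokine gene, Med21 (r = 0.992), a subunit of Mediator, and Ralgds (r = 0.9895), a guanine nucleotide exchange factor. For Csf2 they were Ampd2 (r = 0.986), an AMP deaminase, Tnfrsf13c (r = 0.985), the BAFF receptor, and Mmp13 (r = 0.984), a collagenase. Mmp13 averaged 6.69 in curdlan with FK506 for 4 h, 10.02 in curdlan for 4 h and 6.03 in nontreated cells. Cxcl10 averaged 9.43 in curdlan with FK506 for 4 h, 10.92 in curdlan for 4 h and 6.92 in nontreated cells.

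**Figure D5:**
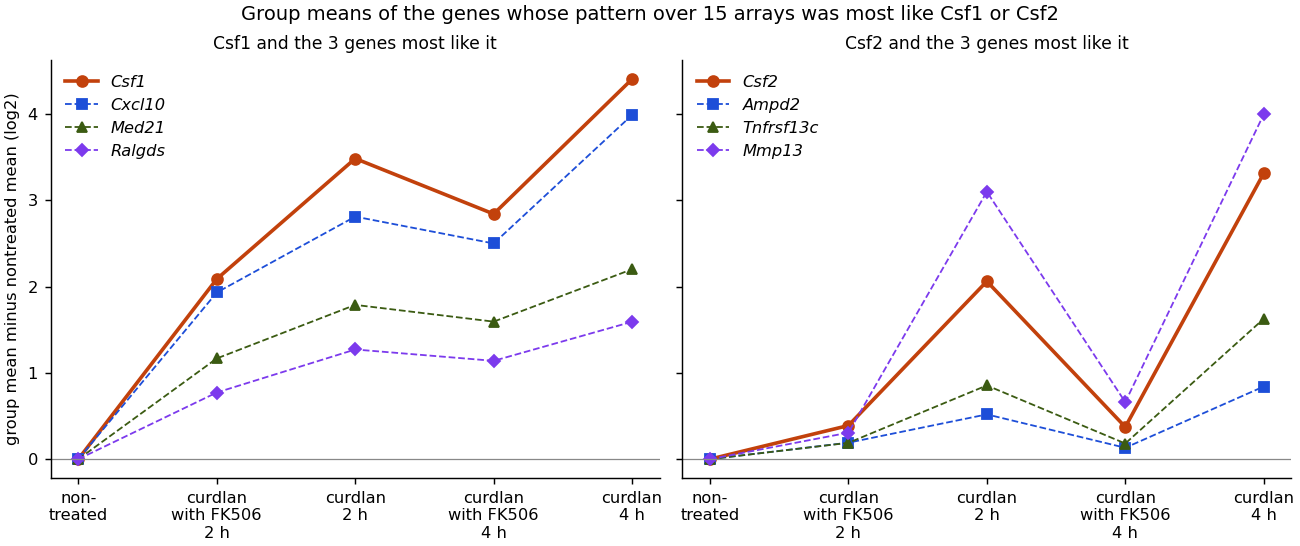
Group mean minus nontreated mean (log2, vertical) of Csf1 and Csf2 and of the 3 genes most like each over 15 arrays, in the 5 groups (horizontal). With FK506 Cxcl10 averages 8.86 at 2 h and 9.43 at 4 h, against 6.92 in nontreated cells, and Mmp13 6.33 and 6.69, against 6.03.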

How the data were processed

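RNA of 15 samples was hybridised to Affymetrix Mouse Gene 1.0 ST arrays. The authors ran RMA, which corrects background, equalizes array distributions and summarizes probes by median polish, with affy in R 2.15.2 (per the submitters' processing notes), and the deposited values are its log2 output. That scaling hides a shift of all genes at once. No depth applies to arrays, and their number limits the precision. Of 34760 probe sets, 21640 carried 1 symbol, 1321 several and 11799 none, and only those with 1 symbol were used. The brightest probe set over the 15 arrays stood for each of 954 genes that have several, which left 19937 genes. Arrays were grouped by the labels, and 0 pairs were identical. Nothing in the labels names separate culture days, so p values measure the spread between these samples.

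A model with 1 mean per group was fitted with limma 3.58.1 in R 4.3.3 (10 residual degrees of freedom, empirical Bayes moderation, two-sided). Comparisons had a median SE of 0.0768 (log2), the interaction one of 0.109. The fit was tested on simulated data with known changes. No filter on low values was used in the main setting. Intervals are 95% and not adjusted.

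The members and the gene lists were chosen with earlier results of these data known. Of 188 list genes 172 were measured, 2 of them under a newer symbol. The 9 gene lists are receptor and ligand partners, JAK-STAT and proximal signalling, STAT5 targets and feedback, other haematopoietic ligands, other haematopoietic receptors, mRNA decay and stability factors, myeloid transcription factors, monocyte and macrophage genes, and housekeeping genes; the 9 marker lists cover DCs and 8 other cell types. Named are all members and partner genes, up to 4 genes of each other list with the largest differences that passed (2 where none passed), and the 3 genes most like each called member. Promoters came from RefSeq (GRCm38.p6). Alternatives tried were array centring, repeated quantile normalization, a filter on dim probe sets, other rules for probe sets, other spread estimates, array weights, a replicate block, other thresholds, and arrays left out.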

Additional observations from a re-analysis of the deposited data

Results flagged for a closer look

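Genes are given here whose FK506 difference (curdlan with FK506 minus curdlan, log2) itself differed between 4 h and 2 h by the interaction test in limma. For Csf2 the difference was -2.94 at 4 h and -1.67 at 2 h, an interaction of -1.27 ± 0.19 (adjusted p = 0.00171). Without nontreated replicate 1 and curdlan 2 h replicate 3, whose array weights were lowest, it was -1.08 (adjusted p = 6.25e-05). In curdlan-treated cells Csf2 was higher at 4 h than at 2 h by 1.25, and with FK506 it differed between the times by -0.02.

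Of the other genes named above or below, Blnk had an interaction of -0.81 ± 0.11 (adjusted p = 0.000907), with -0.81 at 4 h and 0.01 at 2 h. Il6 had an interaction of -0.85 ± 0.12 (adjusted p = 0.000975), with -0.87 at 4 h and -0.02 at 2 h. Tslp had -0.79 ± 0.16 (adjusted p = 0.0114), Mertk -0.68 ± 0.13 (adjusted p = 0.00888) and Lif -0.59 ± 0.11 (adjusted p = 0.00772). Bcl6 had -0.62 ± 0.11 (adjusted p = 0.00608), with 0.13 at 4 h and 0.75 at 2 h. In cells given curdlan for 2 h, Bcl6 differed from nontreated cells by -0.83 ± 0.08.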

How the results depend on the processing

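Over 27 alternatives, 1684 of 1692 member values kept their side of the threshold and 0 lost the call. The sign turned in 54 values, 0 of them of a called difference, mostly of Il3 and Csf3r. The other 8 gained a call, all where the fold threshold was dropped, and concern Csf1r and Csf2rb. Without it, members lower in curdlan 4 h over nontreated cells numbered 1 (Csf1r), members higher in curdlan with FK506 4 h over curdlan 4 h 2 (Csf1r and Csf2rb), members higher in curdlan with FK506 4 h over nontreated cells 2 with 1 lower, members lower at 4 h than at 2 h 1 with curdlan and 1 with FK506, and members higher in the interaction 1. All genes called without the fold threshold, against those called with it, numbered 4004 against 718 (curdlan 2 h), 7432 against 1835 (curdlan 4 h), 1509 against 224 and 2327 against 348 (curdlan with FK506 over curdlan at 2 h and 4 h), 3515 against 468 and 5175 against 1073 (curdlan with FK506 over nontreated cells), 5191 against 816 (4 h over 2 h with curdlan), 2788 against 336 (4 h over 2 h with FK506) and 872 against 246 (interaction). The cause was not tested beyond the construction of that setting. With 1 array left out, the value of Csf2 lay between 1.90 and 2.25 for curdlan 2 h, 3.22 and 3.41 for curdlan 4 h, -1.86 and -1.51 for FK506 at 2 h, and -2.98 and -2.90 at 4 h. Il3 has no value under the filter on dim probe sets, which removed it.

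Same-numbered arrays correlated in their deviations from the group mean between -0.727 and 0.584 (30 pairs, 9 above 0.1). Of 15 arrays, 8 correlated best with their own number. The 2 outlying arrays, whose numbers differ, correlated at 0.782, and deviations within 3 arrays depend on each other. This check therefore cannot decide whether the replicate numbers of the labels pair the arrays. With the number as a block, Csf2 had -2.94 for FK506 at 4 h (adjusted p = 1.97e-07), and no member call changed. The Csf2rb and Csf1r differences that passed on p alone are small, and with 3 arrays a group they rest on replicate SDs of under 0.1.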

Other observations

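Genes that shape myeloid cells or the lifetime of cytokine RNA were also read, as lists, in the same fit. Over all genes, 2.2% were higher and 1.4% lower with curdlan for 2 h, and 5.05% and 4.15% for 4 h. With FK506 0.361% of all genes were higher and 0.762% lower at 2 h, and 0.211% and 1.53% at 4 h. Of 17 measured myeloid transcription factors, 6 were higher and 1 lower with curdlan for 2 h, and 5 were higher and 0 lower for 4 h (median at 4 h 0.08, all genes -0.12). Irf8 rose by 2.40 ± 0.04 (adjusted p = 8.41e-14) and Mitf by 2.26 ± 0.13 at 4 h, and Egr1 by 2.27 ± 0.06 and Irf4 by 0.87 ± 0.05 at 2 h. Mitf, a regulator of macrophages and osteoclasts, was the 1 factor that was lower with FK506, with differences of -1.59 ± 0.13 at 2 h and -0.91 ± 0.13 at 4 h. It averaged 9.26 ± 0.03 in curdlan with FK506 for 4 h and 10.16 ± 0.01 in curdlan for 4 h.

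Of 12 genes for mRNA decay and stability factors, which bind elements in transcripts, 3 were higher with curdlan for 2 h. With curdlan for 4 h, 4 were higher and 1 lower. With FK506 0 passed (3 at an unadjusted p under 0.05 at each time). Over all genes, 2.2% were higher and 1.4% lower with curdlan for 2 h, and 5.05% and 4.15% for 4 h. With FK506 0.361% of all genes were higher and 0.762% lower at 2 h, and 0.211% and 1.53% at 4 h. Thus 0 of 12 is near that share. Zc3h12a rose by 2.08 ± 0.07, Zfp36 by 1.84 ± 0.10 and Zfp36l1 by 0.90 ± 0.06 at 2 h. At 4 h Zc3h12a was higher by 1.73 ± 0.07, Zfp36 by 1.43 ± 0.10 and Zfp36l1 by 1.22 ± 0.06, and Zfp36l2 fell by 0.90 ± 0.05. With FK506 Zfp36 differed from curdlan by 0.28 at both times (adjusted p = 0.108 and 0.0913). Of 9 monocyte and macrophage genes, 2 passed with FK506, namely Mertk, lower at 2 h (-1.53 ± 0.09) and 4 h (-2.20 ± 0.09), and Cd14, lower at 4 h (-0.90 ± 0.14). Cd14 rose by 1.12 ± 0.14 with curdlan for 4 h (2.17-fold, adjusted p = 2.36e-05) and by 0.71 ± 0.14 with curdlan for 2 h. The 2 h call was lost without nontreated replicate 1 (0.54) and with array weights (0.55). It was also lost where only the groups compared were fitted (adjusted p = 0.073). At 2 h with FK506 Cd14 differed from curdlan by -0.54, and passed without curdlan 2 h replicate 3 (-0.68). Of 9 housekeeping genes, 0 passed in any of these 4 comparisons (2, 4, 0 and 1 at an unadjusted p under 0.05).

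The tested genes next to Csf1 and Csf2 on their chromosomes, 3 on either side, were read after the members' values were known. With curdlan for 4 h, 0 of these 12 passed the test, Il3 among them. Over all genes 5.05% were higher and 4.15% lower there, so 0 of 12 is near that share. On chromosome 3, Gstm5 differed by 0.52 ± 0.09 (adjusted p = 0.000366) and Ahcyl1 by 0.52 ± 0.05 (adjusted p = 7.65e-07), both under 1.5-fold. With FK506 at 4 h both were lower than with curdlan, by less than 1.5-fold as well (Gstm5 -0.41, adjusted p = 0.0085, and Ahcyl1 -0.37, adjusted p = 9.7e-05). On chromosome 11, Slc22a4 had the largest difference in size, -0.30 ± 0.11 (adjusted p = 0.0461).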
